A study of Arabidopsis thaliana with 12 samples.

Results

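Catalases and glutathione peroxidases remove peroxides, and their transcripts were followed across 4 treatments of Arabidopsis thaliana seedlings. The set held 10 loci, 3 catalases and 7 glutathione peroxidases, out of 23552 genes tested. The catalases were CAT1 (AT1G20630), CAT2 (AT4G35090) and CAT3 (AT1G20620). The glutathione peroxidases were GPX1 (AT2G25080), GPX2 (AT2G31570), GPX3 (AT2G43350), GPX5 (AT3G63080), GPX6 (AT4G11600), GPX7 (AT4G31870) and GPX8 (AT1G63460). They were taken from the array by locus, and 25 of its 43603 probes carried 1 of these loci. All 25 probes passed the filter on dim signals, and the brightest probe of each gene was well above background on all 12 arrays. GPX4 was not analysed here.

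The groups were whole Col-0 wild-type seedlings grown on medium with 3-bromo-7-nitroindazole (3B7N), with 7-nitroindazole (7NIT), which lacks the bromo group, with 3-bromoindazole (3BRO), which lacks the nitro group, or with the solvent dimethyl sulfoxide (DMSO). The chemicals were at 2.5 µM, and each group had 3 single-colour arrays. All seeds spent 3 days in the cold and dark and then 4 days in blue light without interruption, at a fluence rate of 10 µmol m-2 s-1, in the presence of the chemical throughout. The study looked at the effect of 3B7N on hypocotyl elongation in blue light, and the cry1cry2 genotype named in its design was not analysed here.

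Catalases break hydrogen peroxide down in peroxisomes, the organelles of photorespiration and of fatty acid breakdown, and CAT2 is the main catalase of green leaves. CAT3 is known from vascular and senescing tissue, and CAT1 from pollen and seeds and from responses to abscisic acid. Glutathione peroxidases reduce hydrogen and lipid peroxides, and in plants they draw electrons from thioredoxin rather than from glutathione. GPX1 and GPX7 are the chloroplast forms, whereas GPX2, GPX3, GPX5, GPX6 and GPX8 are placed in the cytosol, nucleus, mitochondria, endomembranes or plasma membrane.

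Levels are log2 of the processed signal minus that array's 75th percentile, so 1 unit is a 2-fold change, and levels of different genes are not set against each other because their probes differ. The 75th percentile of the signal ran from 1768 to 3761 over the 12 arrays, with 3318 to 3761 in 3B7N, 2770 to 3472 in 7NIT, 2366 to 2920 in 3BRO and 1768 to 2205 in DMSO. Arrays were scanned on 3 slides. The first held all DMSO arrays with 3BRO 1, the second 3BRO 2 and 3 with 3B7N 1 and 2, and the third all 7NIT arrays with 3B7N 3. The first slide was scanned on an earlier day than the others, so only 3BRO had arrays of both scan days. No slide held 3B7N or 7NIT together with DMSO, or 7NIT together with 3BRO, so for these pairs slide and chemical can be separated only through arrays of other groups. The 3B7N arrays stood apart from the rest, with scores of 91.1, 53.0 and 53.1 on the leading principal component, where the scores of the remaining 9 ran from -36.7 to -7.2. The labelled tissue was checked by 4 green-tissue markers, all measured, whose summed signal was 428 to 530 times the 75th percentile in 3B7N, 512 to 615 in 7NIT, 580 to 641 in 3BRO and 527 to 859 in DMSO.

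GPX7, a chloroplast glutathione peroxidase, had the widest change of the 10 loci and was lowest with 3B7N. Its level was -5.62, -5.10 and -5.97 on the 3B7N arrays, -1.85, -1.86 and -1.93 on the 7NIT arrays, -3.05, -2.57 and -2.20 on the 3BRO arrays, and -1.29, -2.11 and -1.64 on the DMSO arrays. Every 3B7N array lay below all 9 others, and every 3BRO array lay below all 7NIT and DMSO arrays, while the 7NIT and DMSO arrays overlapped. The means were -5.56 ± 0.44 with 3B7N, -1.88 ± 0.05 with 7NIT, -2.61 ± 0.42 with 3BRO and -1.68 ± 0.41 with DMSO (SD, n = 3 each).

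GPX1, the other chloroplast form, was lowest with 3B7N as well. Its level was 3.61, 3.67 and 3.51 with 3B7N, 4.14, 4.19 and 4.09 with 7NIT, 3.96, 4.24 and 4.16 with 3BRO, and 4.26, 4.21 and 4.47 with DMSO. The 3B7N arrays lay below all others, the 7NIT arrays lay below the DMSO arrays by a narrow margin, and the remaining groups overlapped.

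The catalases moved in different directions. CAT2, the leaf catalase, was at 4.83, 5.24 and 4.55 with 3B7N, 6.0, 5.81 and 5.79 with 7NIT, 5.70, 5.71 and 5.58 with 3BRO, and 6.14, 5.82 and 6.20 with DMSO. All 3B7N arrays were the lowest, and all 3BRO arrays came next, below every 7NIT and DMSO array. CAT3 ran the other way, at 6.32, 6.37 and 6.47 with 3B7N, 5.42, 5.46 and 5.76 with 7NIT, 5.98, 5.92 and 5.80 with 3BRO, and 5.37, 5.14 and 5.95 with DMSO. These are values of its brightest probe, on which the 3B7N arrays lay above all others. The widest spread on that probe was among the DMSO arrays, whose SD was 0.42 against 0.08 among the 3B7N arrays. Not every CAT3 probe kept 3B7N and 3BRO apart. The third CAT3 probe was at 3.76, 3.66 and 4.84 with 3B7N and 3.23, 3.78 and 3.38 with 3BRO. CAT1, by its brightest probe, was at 3.19, 3.38 and 3.97 with 3B7N, 2.64, 2.75 and 2.88 with 7NIT, 3.07, 2.94 and 2.67 with 3BRO, and 2.87, 2.96 and 3.12 with DMSO. Its 3B7N arrays were also the highest, and the other groups overlapped with each other.

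**Figure D1:**
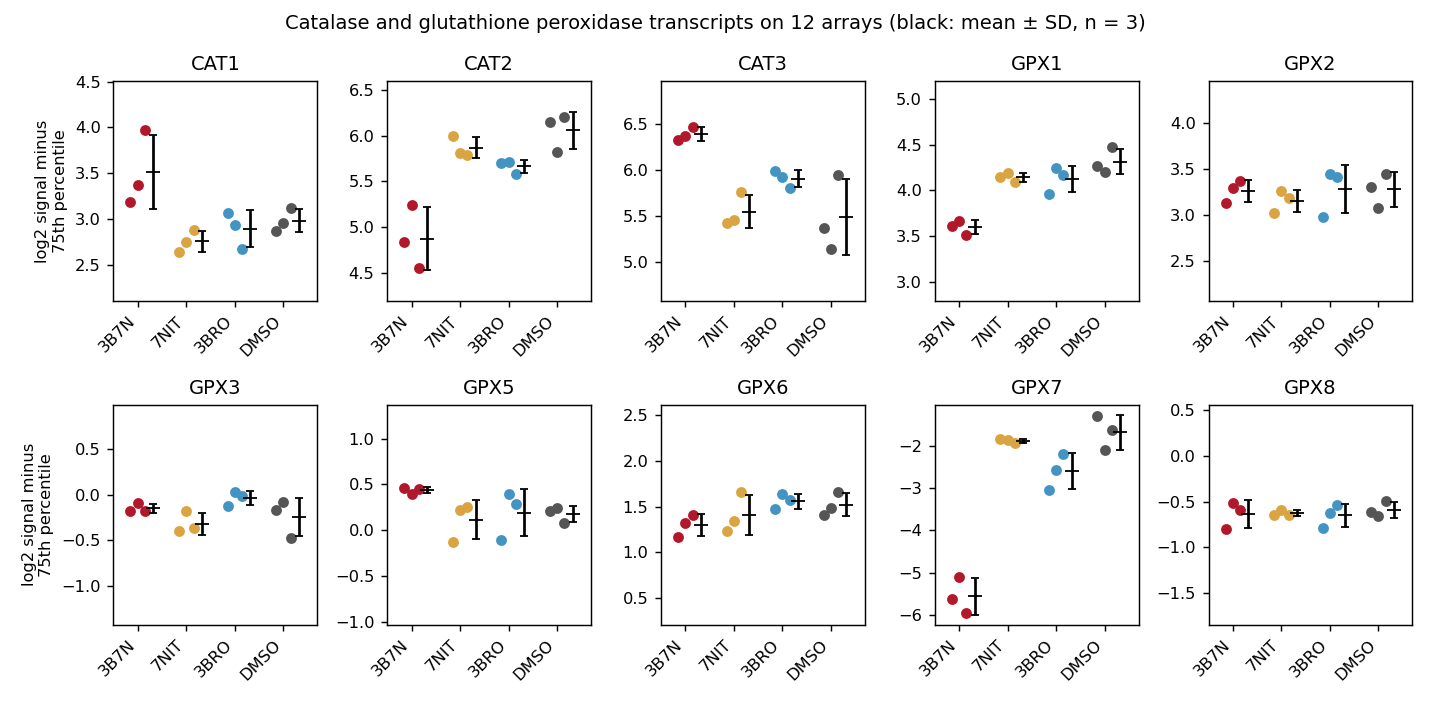
Level of each of the 10 genes on each array (log2 processed signal minus the array's 75th percentile, vertical axis), 1 point per array, grouped by treatment, with the mean and SD of 3 arrays in black; the vertical ranges differ between panels. GPX7 lies between -5.97 and -5.10 on the 3B7N arrays and between -3.05 and -1.29 on all other arrays, while GPX2 stays between 2.98 and 3.45 on all 12 arrays.

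The remaining 5 glutathione peroxidases stayed within narrow ranges. GPX2, which is placed in the cytosol, was between 2.98 and 3.45 over all 12 arrays. GPX3, known as a peroxide sensor in abscisic acid signalling, was between -0.48 and 0.02, and GPX8, of cytosol and nucleus, between -0.80 and -0.50. GPX5, a membrane-bound form, was at 0.47, 0.40 and 0.45 with 3B7N, against -0.13, 0.22 and 0.26 with 7NIT, -0.10, 0.40 and 0.29 with 3BRO and 0.21, 0.24 and 0.08 with DMSO. GPX6, which is placed in mitochondria and cytosol, had its lowest mean with 3B7N, 1.3 ± 0.12, with 1.41 ± 0.22 in 7NIT, 1.56 ± 0.08 in 3BRO and 1.52 ± 0.13 in DMSO (SD, n = 3 each).

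The difference of 3B7N from DMSO is given as a description, because the results of GPX7, CAT2 and CAT3 in it were known when the genes were chosen. GPX7 stood at -3.88 log2 units (SE 0.28), CAT2 at -1.18 (SE 0.18), GPX1 at -0.72 (SE 0.12), CAT3 at 0.90 (SE 0.19) and CAT1 at 0.53 (SE 0.20). By limma with Benjamini-Hochberg adjustment at 0.05, 4 of the 10 genes were past the threshold, CAT3 higher and GPX7, CAT2 and GPX1 lower, in a comparison in which 15.7% of all genes were called, 5.49% higher and 10.2% lower. The choice of genes fixed 3 of these 4 calls, so nothing is read from the count against that share. Slide and chemical are confounded here: with slide as a block GPX7 alone passed, at -4.34, where 3.27% of all genes were called. Scan day and chemical are confounded as well, and with scan day as a block GPX7 and GPX1 passed, where 2.59% of all genes were called. That block rests on the 3BRO arrays alone, of which only 3BRO 1 shared the scan day of DMSO. The 3B7N and DMSO arrays did not overlap for 7 of the 10 genes and for 34.6% of all genes. In the authors' deposited table, which lists 1779 probes for 3B7N against DMSO, the GPX7 probe has a fold of 14.67 (corrected p = 0.00442) and the CAT2 probe a fold of 2.26 (corrected p = 0.0197), without a direction. Of 14 probes in the authors' deposited table for 7NIT against DMSO, none (0) belonged to these genes.

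Setting 3B7N against 7NIT asks what the bromo group adds at the same dose. With each gene read at its brightest probe, GPX7, CAT2 and GPX1 were lower with 3B7N, and CAT1 and CAT3 were higher. That made 5 of 10 genes called where 18.6% of all genes were, 6.06% higher and 12.5% lower. The 3B7N and 7NIT arrays did not overlap for 7 of 10 genes, against 40% of all genes. GPX7 fell by 3.68 on the log2 scale (limma adjusted p = 9.2e-05, SE 0.28, 3 arrays in each group), a 12.8-fold lower signal. CAT2 fell by 0.99 (SE 0.18, adjusted p = 0.0042), and GPX1 by 0.55 (SE 0.12, adjusted p = 0.013). CAT3 rose by 0.84 (SE 0.19, adjusted p = 0.013) and CAT1 by 0.75 (SE 0.20, adjusted p = 0.023). The second probe of CAT1 went the other way, at -0.67 (SE 0.16), so the direction of CAT1 depends on the probe. These tests use the same 3B7N arrays as the comparison with DMSO, so they are not independent of the choice of genes.

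The bromo-group calls of GPX7 and CAT2 were the firmest, being made in 22 of 22 settings of the processing, arrays left out in turn among them. CAT3 and GPX1 were called in 20 of 22 and CAT1 in 15 of 22. The call of CAT3 ended with slide as a block (0.93, adjusted p = 0.089) and without 7NIT 1 (0.78, adjusted p = 0.057), that of GPX1 with slide as a block (-0.63, adjusted p = 0.052) and after normexp background correction (-0.49, adjusted p = 0.069). That of CAT1 ended without any 1 of the 7NIT arrays or 3B7N 3, and in 3 other settings. Within the third slide, 3B7N 3 differed from the 3 7NIT arrays by -4.08 for GPX7, -1.31 for CAT2, -0.63 for GPX1, 0.93 for CAT3 and 1.21 for CAT1. Each had the direction of the whole comparison, but these values rest on 1 3B7N array. That array was the lowest 3B7N array for GPX7, CAT2 and GPX1 and the highest for CAT3 and CAT1. For all these genes the values are also those of the fit with slide as a block, so they are no check apart from it.

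Setting 3B7N against 3BRO asks what the nitro group adds. The 3 genes called were all lower with 3B7N, GPX7, CAT2 and GPX1, which is 3 of 10 where 7.52% of all genes were called, 2.72% higher and 4.79% lower. The arrays did not overlap for 7 of 10 genes, against 25.5% of all genes. GPX7 fell by 2.95 on the log2 scale (limma adjusted p = 0.00046, SE 0.28, 3 arrays in each group), CAT2 by 0.79 (SE 0.18, adjusted p = 0.024) and GPX1 by 0.53 (SE 0.12, adjusted p = 0.028). CAT1 at 0.62 (limma adjusted p = 0.084) and CAT3 at 0.49 (adjusted p = 0.16) did not pass. On the brightest probe of both genes, all 3B7N arrays lay above all 3BRO arrays. After quantile normalisation CAT3 stood at 0.80 and passed (limma adjusted p = 0.023). As with 7NIT, these tests use the same 3B7N arrays as the comparison with DMSO. They are therefore not independent of the choice of genes, and nothing is read from the counts against the shares of all genes.

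Only GPX7 kept its nitro-group call in all 22 settings, with GPX1 at 15 and CAT2 at 12. Leaving out 3BRO 1, 3BRO 2, 3BRO 3, 3B7N 1 or 3B7N 3 ended the call of CAT2 (adjusted p of 0.054 to 0.079), and leaving out 3BRO 2, 3BRO 3, 3B7N 1 or 3B7N 3 that of GPX1 (adjusted p of 0.059 to 0.10). Both calls also ended after normexp correction (adjusted p of 0.056 for CAT2 and 0.11 for GPX1), in a fit of only the groups compared (0.12 and 0.14) and with slide as a block (0.11 and 0.060), and that of CAT2 further after quantile normalisation (0.067) and with scan day as a block (0.063). Within the second slide, 3B7N 1 and 2 differed from 3BRO 2 and 3 by -2.97 for GPX7, -0.61 for CAT2, -0.57 for GPX1, 0.49 for CAT3 and 0.48 for CAT1. Those of GPX7, CAT2 and GPX1 are also the values of the fit with slide as a block.

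None (0) of the 10 genes was called by limma with 3BRO or 7NIT alone against DMSO, comparisons in which 0.00425% and 0.0255% of all genes were called. For 3BRO, 2 of 10 genes were at an unadjusted p under 0.05, as were 886 of all 23552 genes. The 2 were GPX7 at -0.93 (95% confidence interval -1.54 to -0.32, adjusted p = 0.996) and CAT2 at -0.39 (-0.78 to -0.002, adjusted p = 0.996). Those 2 genes were also the ones whose 3BRO and DMSO arrays did not overlap, as was the case for 9.23% of all genes. Within the first slide, 3BRO 1 differed from the DMSO arrays by -1.37 for GPX7 and -0.36 for CAT2. For 7NIT no gene (0 of 10) was at an unadjusted p under 0.05, where 1858 of all 23552 genes were. Only GPX1, at -0.17 (-0.44 to 0.10, adjusted p = 0.73), had groups that did not overlap, against 18% of all genes. GPX7 differed from DMSO by -0.20 with 7NIT (-0.81 to 0.41), and CAT3, on its brightest probe, by 0.06 (-0.36 to 0.48). Changes of up to those bounds in log2 units are not excluded at 3 arrays per group. The 9 CAT3 probes ran from -0.56 to 0.06 for 7NIT against DMSO.

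The single-substituted compounds were also set against each other, 7NIT over 3BRO, and again 0 of 10 genes were called by limma where 0.0212% of all genes were. GPX7 alone of the 10 was at an unadjusted p under 0.05, as were 2202 of all 23552 genes. GPX7 was higher on every 7NIT array than on any 3BRO array, by 0.72 log2 units in the mean (95% confidence interval 0.11 to 1.33), but did not pass (adjusted p = 0.49). CAT2 likewise lay higher on every 7NIT array, by 0.20 (-0.19 to 0.59, adjusted p = 0.75), and CAT3 and GPX3 lay lower, by -0.36 (-0.78 to 0.06, adjusted p = 0.59) and -0.28 (-0.57 to 0.01, adjusted p = 0.54). Non-overlapping arrays, found for 4 of 10 genes here, were found for 16.8% of all genes.

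**Figure D2:**
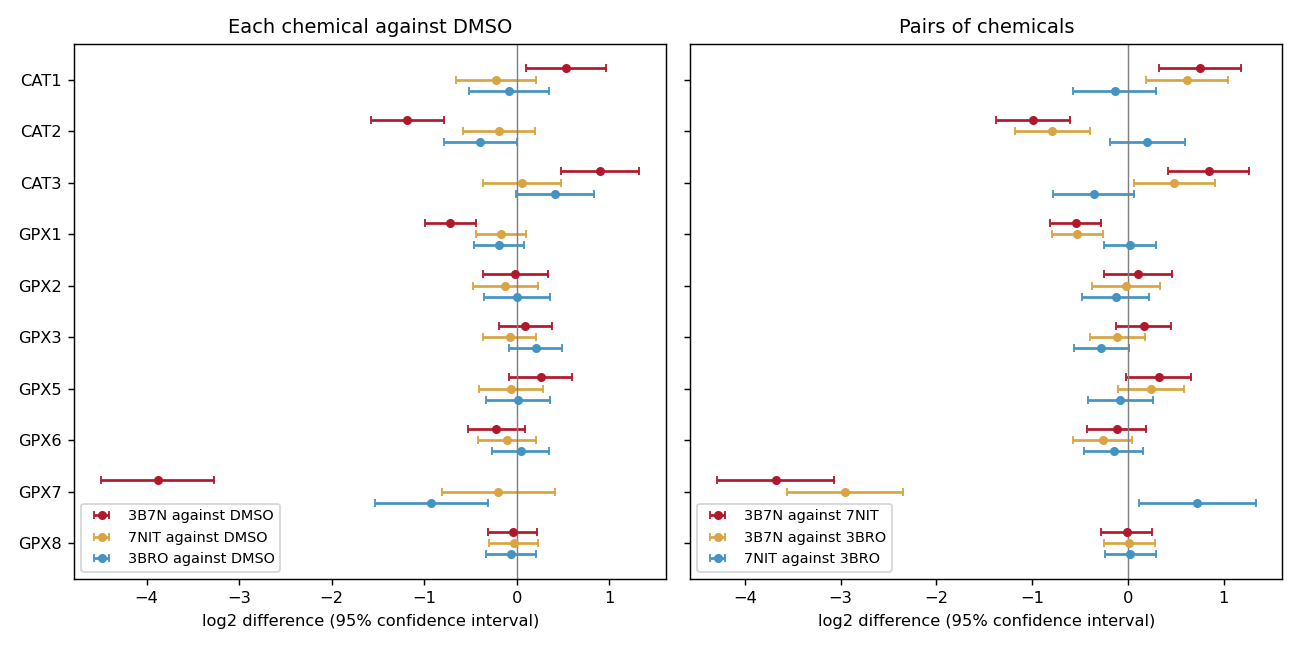
Log2 difference of each gene (horizontal axis, point, with limma's 95% confidence interval) for each chemical against DMSO on the left and for the pairs of chemicals on the right. GPX7 lies at -3.88, -3.68 and -2.95 in the comparisons of 3B7N with DMSO, 7NIT and 3BRO, and the intervals of GPX2, GPX3, GPX5, GPX6 and GPX8 include 0 in all 6 comparisons.

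Whether the changes with the 2 single-substituted compounds add up to that with 3B7N was tested as an interaction: the effect of the nitro group in the presence of bromine, 3B7N against 3BRO, less its effect without, 7NIT against DMSO. For GPX7 the sum of the single changes was -1.13, against a measured change of -3.88 with 3B7N. The difference between them was -2.75 (SE 0.39, 95% confidence interval -3.62 to -1.89, limma adjusted p = 0.017), and GPX7 was the 1 of 10 genes called where 0.658% of all genes were, 0.348% higher and 0.31% lower. The interaction contains the difference of GPX7 between 3B7N and DMSO, which was known when the genes were chosen, so its call is not independent of that choice. The call was made in 16 of 21 settings, and the value lay between -2.98 and -2.25 in all of them. It ended when slide (-2.71, adjusted p = 0.052) or scan day (-2.31, adjusted p = 0.053) was a block, after normexp correction (-2.25, adjusted p = 0.095), without 3BRO 2 (-2.73, adjusted p = 0.061) and without 7NIT 1 (-2.74, adjusted p = 0.051). CAT1 at 0.84 (0.23 to 1.45, adjusted p = 0.17), CAT2 at -0.60 (-1.15 to -0.04, adjusted p = 0.27), CAT3 at 0.43 (-0.17 to 1.02, adjusted p = 0.45) and GPX1 at -0.36 (-0.74 to 0.03, adjusted p = 0.33) did not pass.

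GPX2, GPX3, GPX5, GPX6 and GPX8, the forms outside the chloroplast, were not called in any tested comparison. Against 7NIT they lay between -0.11 and 0.32 with 3B7N, with confidence bounds from -0.42 to 0.66, and against 3BRO between -0.26 and 0.24, with bounds from -0.57 to 0.59. GPX5 was the member of this group nearest to a call, at 0.32 against 7NIT (-0.02 to 0.66, adjusted p = 0.17), and its 3B7N arrays lay above the arrays of every other group, though 3BRO 2 came within rounding of the lowest. GPX6 lay below the 3BRO arrays on all 3B7N arrays, at -0.26 (-0.57 to 0.05, adjusted p = 0.31). A change of more than 0.66 log2 units in these 5 genes is outside the 95% intervals of all comparisons of 3B7N with another treatment. In whole seedlings, fewer cells of a type and less RNA per cell cannot be told apart.

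Several genes had more than 1 probe, and for CAT1 the probes disagreed. Its second probe was at -1.60, -1.47 and -1.70 with 3B7N, -0.91, -0.78 and -1.06 with 7NIT, -0.98, -0.47 and -0.81 with 3BRO, and -0.44, -0.76 and -0.43 with DMSO. On this probe the 3B7N arrays were the lowest, the opposite of the brightest probe. With every passing probe tested on its own, an analysis chosen after seeing the data, the second probe was lower with 3B7N than with 7NIT by 0.67 (SE 0.16, limma adjusted p = 0.019), in a comparison with 17% of all probes called, and lower than with 3BRO by 0.83 (SE 0.16, adjusted p = 0.013), where 7.36% of all probes were called. In the authors' deposited table it is the second probe of CAT1 that is listed for 3B7N against DMSO, with a fold of 2.05 (corrected p = 0.0132), and here it stood at -1.04 in that comparison. The third CAT1 probe was well above background on 3 of 3 3B7N arrays but on only 1 7NIT, 2 3BRO and 1 DMSO arrays, and its difference from 7NIT was 1.28 (SE 1.15, adjusted p = 0.47). With the mean of all its passing probes CAT1 stood at 0.46 against 7NIT (adjusted p = 0.48), so its call rests on the brightest probe. CAT1 and CAT3 are neighbouring genes on chromosome 1 with no protein-coding gene (0) between them in the RefSeq table, and whether a probe of 1 binds transcripts of the other was not tested.

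For each other gene with several probes, all its probes differed in 1 direction when 3B7N was set against 7NIT or 3BRO. Probes of 1 gene read the same transcripts and are not replicates. All 9 CAT3 probes were higher with 3B7N than with 7NIT, by 0.84 to 1.73, and all 9 were called. Against 3BRO they lay at 0.49 to 1.1 and 0 of 9 were called by limma. The brightest CAT3 probe gave the smallest difference of the 9 from both 7NIT and 3BRO. The CAT3 probes were less alike with 7NIT, at -0.56 to 0.06 against DMSO and -1.18 to -0.31 against 3BRO, with 0 of 9 called by limma. Against DMSO the brightest probe was the only one above 0. All 4 GPX1 probes lay lower with 3B7N, at -0.68 to -0.55 against 7NIT and at -0.75 to -0.53 against 3BRO, of which 3 of 4 were called in each comparison. GPX5 and GPX6 had 2 probes each, and none of these 4 was called against 7NIT or 3BRO. CAT2, GPX2, GPX3, GPX7 and GPX8 rest on 1 probe each, so the largest change, that of GPX7, has no second probe beside it.

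**Figure D3:**
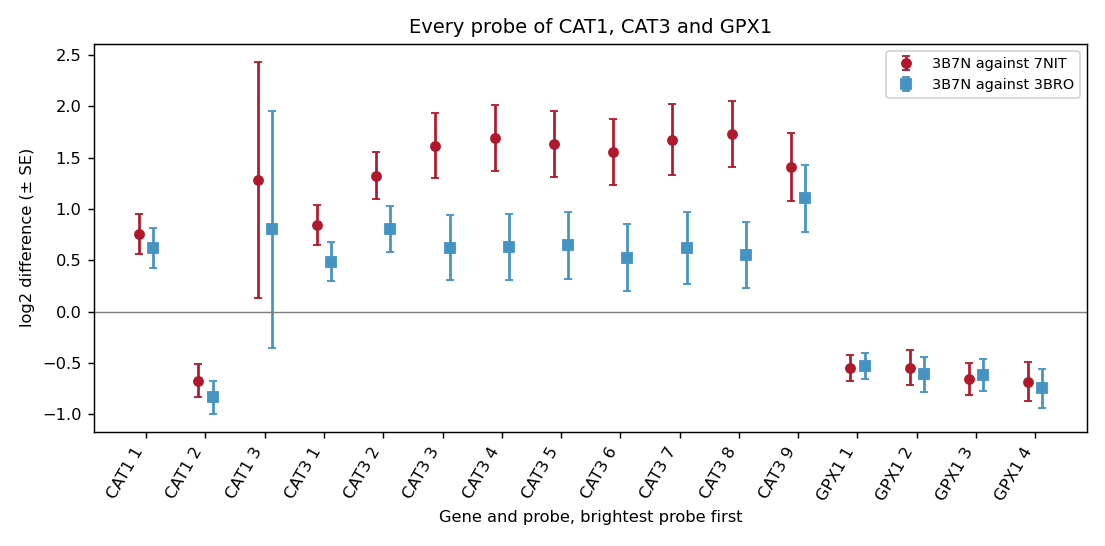
Log2 difference (vertical axis, with SE) of every probe of CAT1, CAT3 and GPX1 for 3B7N against 7NIT (red circles) and against 3BRO (blue squares), numbered from the brightest probe of each gene. The 9 CAT3 probes lie at 0.84 to 1.73 against 7NIT, the 4 GPX1 probes below 0, and the second CAT1 probe at -0.67 against 7NIT while the first is at 0.75.

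The genes whose levels followed GPX7, CAT2 and CAT3 most closely over the 12 arrays were found by Pearson's r, given as a description. For GPX7 they were VAR1, a chloroplast FtsH protease (r = 0.994), AT1G32220 (r = 0.991) and AT2G25510 (r = 0.988). Their sizes differed, with 3B7N against DMSO at -0.82 for VAR1, -1.36 for AT1G32220 and -3.27 for AT2G25510. For CAT2 they were FD1, a ferredoxin (r = 0.984), SHM1, the mitochondrial serine hydroxymethyltransferase of photorespiration (r = 0.982), and FBA1, a plastid aldolase (r = 0.981). For CAT3 they were FLA21, a fasciclin-like protein (r = 0.925), AT5G59000 (r = 0.921) and SKD1, an ATPase of endosomal sorting (r = 0.920). The 3B7N arrays stand apart from the rest, and over the 9 arrays without them, a step chosen after seeing the data, r was 0.868 to 0.945 for the GPX7 genes, 0.885 to 0.935 for the CAT2 genes and 0.833 to 0.917 for the CAT3 genes. All arrays share the scaling to the 75th percentile, and arrays of a group mostly share a slide, so these enter r as well.

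Other peroxide-removing enzymes were described through lists of known genes, chosen with earlier results of these data in view. Here and below, counts of lower or higher genes of a list are of genes called by limma at an adjusted p under 0.05. In 3B7N against 7NIT, 12.5% of all genes were called lower and 6.06% higher. Of 8 genes listed as ascorbate peroxidases, enzymes that reduce hydrogen peroxide with ascorbate, 5 were called lower with 3B7N than with 7NIT and 0 higher. Their median was -0.69, against -0.03 over all genes. APX1 (0.25), APX2 (0.78) and APX5 (0.78) lay higher but were not called. The 5 called included the chloroplast thylakoid form TAPX (-0.98, SE 0.13, limma adjusted p = 0.0012) and the plastid protein APX4, also called TL29 (-0.97, SE 0.16, adjusted p = 0.0027). The plastid stromal form SAPX (-0.77, SE 0.11, adjusted p = 0.0016) was called as well. The others called were APX6 (-0.74, SE 0.20, adjusted p = 0.025) and APX3 (-0.65, SE 0.11, adjusted p = 0.0038). Of 9 peroxiredoxins, thiol peroxidases, 4 were called lower and 0 higher, with a median of -0.28. PER1 (1.07, limma adjusted p = 0.053) and PRXIID (0.21) lay higher but were not called. The called peroxiredoxins were led by PRXQ (-1.51), PRXB (-1.45) and PRXA (-1.07), which are chloroplast enzymes. Of 13 genes of the thioredoxin system, which hands electrons to peroxidases, 6 were lower and 0 higher, with a median of -0.46, and TRXY2 (-1.15), TRXX (-1.07) and the plastid reductase NTRC (-0.90) led them.

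In the same comparison, with 12.5% of all genes lower and 6.06% higher, the list of 12 genes that recycle ascorbate and glutathione had 3 lower and 1 higher. Its median was -0.05, which was 0.02 after quantile normalisation. With slide as a block, in a fit of only the groups compared and without 7NIT 1, 1 was lower. The dehydroascorbate reductases differed, with the plastid form DHAR3 at -1.11 (SE 0.14, limma adjusted p = 0.00086) and DHAR1, of the cytosol, at 1.09 (SE 0.16, adjusted p = 0.0015). GR2, the organellar glutathione reductase, was at -1.20 (SE 0.21, adjusted p = 0.010) with only 2 3B7N arrays and 1 7NIT array, since the other spots were marked by the scanner software. The lone 7NIT value was assumed to vary like the other groups, and in the fit GR2 is 1 of the 3 lower genes of this list. Of 7 superoxide dismutases, which make hydrogen peroxide, 3 were lower and 0 higher, with a median of -0.29. FSD1, an iron form, was at -1.98, CSD2, a plastid copper and zinc form, at -0.91 and FSD3, a plastid form, at -0.69.

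Among peroxisomal enzymes around the catalases, calls in photorespiration were all lower and calls in fatty acid breakdown all higher, while partners and import had none (0). Of all genes 12.5% were called lower and 6.06% higher. Of 8 genes of peroxisomal photorespiration, the source of much of the peroxide that CAT2 removes, 5 were lower with 3B7N than with 7NIT and 0 higher, with a median of -0.63, led by the glycolate oxidases GOX1 (-1.03) and GOX2 (-0.90) and the hydroxypyruvate reductase HPR1 (-1.01). Of 11 genes of fatty acid beta-oxidation and the glyoxylate cycle, 8 were higher and 0 lower, with a median of 0.59. Among them were ICL, isocitrate lyase (1.12, SE 0.19, limma adjusted p = 0.0028), ACX1, an acyl-CoA oxidase (0.82), and MLS, malate synthase (0.71). With slide as a block 1 of 11 passed, at a median of 0.55. Leaving out 7NIT 1 also left 1 call, 7NIT 3 left 3, and 7NIT 2, 3B7N 1 or 3B7N 3 left 4 each, and in a fit of only the groups compared, without the filter on dim probes and without DMSO 2 there were 5. Of 6 genes of catalase partners and peroxisome import, LSD1, NCA1, SOS2, PEX5, PEX7 and PEX14, 0 were called by limma, 0 at an unadjusted p under 0.05, and the median was -0.02. Of 9 genes known to answer reactive oxygen 0 were called by limma, and 0 were at an unadjusted p under 0.05, with a median of -0.53 that was -0.003 without 3B7N 1. In this comparison 8063 of all 23552 genes were at an unadjusted p under 0.05.

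**Figure D4:**
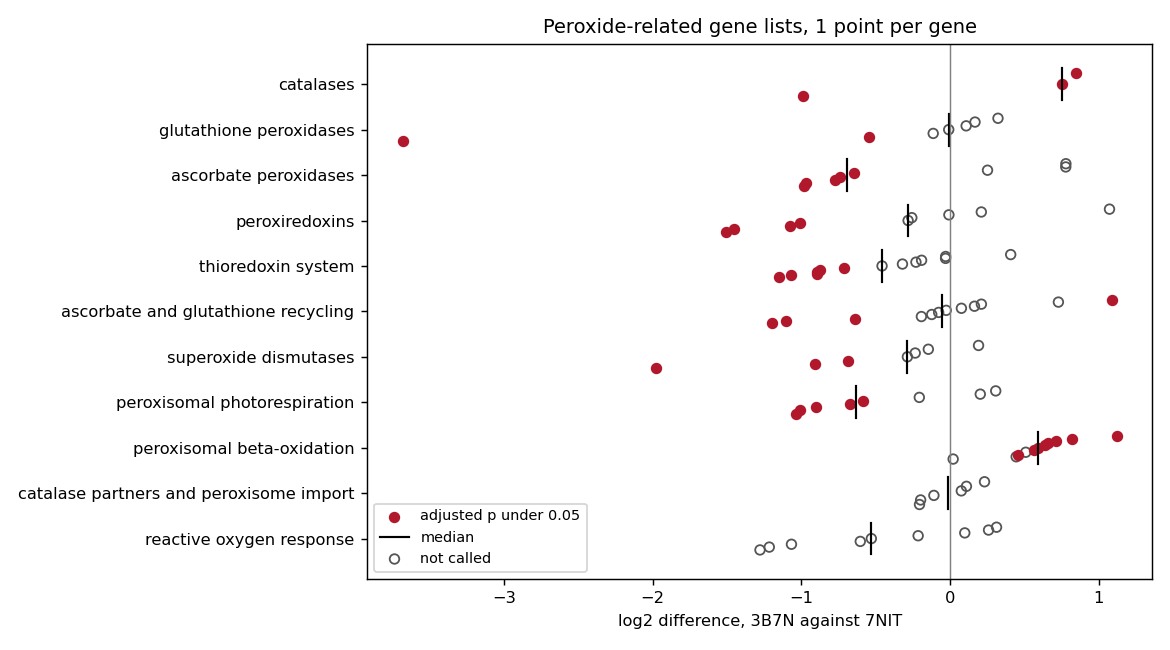
Log2 difference of 3B7N against 7NIT (horizontal axis) for the catalases, the glutathione peroxidases and 9 lists of related genes, 1 point per gene, filled red where the adjusted p was under 0.05, with the median of each list as a black bar. Ascorbate peroxidases and photorespiration lie mostly below 0, at medians of -0.69 and -0.63, and beta-oxidation above it, at 0.59.

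Against 3BRO 22 of the 83 genes of these lists were called, in a comparison with 7.52% of all genes called, 4.79% lower and 2.72% higher. Against 7NIT 35 were, with 18.6% of all genes called. Against 3BRO the ascorbate peroxidases had 3 lower and 1 higher, with TAPX at -0.82 and APX4 at -0.60. The higher one was APX2, a heat- and high-light-induced cytosolic form (2.61, SE 0.67, limma adjusted p = 0.039). Of the peroxiredoxins 4 were lower, led by PRXQ (-1.14), PRXB (-1.11) and PRXA (-0.77), and of the thioredoxin system 4, led by TRXY2 (-0.69), TRXX (-0.69) and FTRA2, a subunit of ferredoxin-thioredoxin reductase (-0.61). Of the recycling genes 1 was lower, DHAR3 (-0.84), and 1 higher, DHAR1 (0.70), and of the superoxide dismutases FSD1 alone was lower (-4.00). In photorespiration 4 were lower, with HPR1 at -0.92, GOX1 at -0.86 and GOX2 at -0.71, and in beta-oxidation 2 were higher, ICL (0.73) and the acyl-CoA synthetase LACS7 (0.54). GSTU24, a glutathione transferase, was the 1 reactive oxygen response gene called (0.78). Its call ended after normexp correction, without the filter on dim probes and with scan day as a block. It also ended without any 1 of the 3BRO arrays, 3B7N 1, 3B7N 3 or DMSO 2. The call of APX2 ended after normexp correction, without that filter and with slide or replicate number as a block. It also ended without 3BRO 2, 3BRO 3, 3B7N 2, 3B7N 3, DMSO 2 or any 1 of the 7NIT arrays. With slide as a block there were 0 calls by limma in the thioredoxin, beta-oxidation and reactive oxygen lists, 1 lower in the ascorbate peroxidase, recycling, photorespiration and superoxide dismutase lists each, and 3 lower among the peroxiredoxins. In a fit of only the groups compared 0 genes of 8 of the 9 lists were called by limma, and 1 superoxide dismutase was. Photorespiration had 1 call after quantile normalisation, with scan day as a block and without 3BRO 1, and 2 without 3BRO 2. The thioredoxin system had 0 calls by limma with scan day as a block and without 3BRO 1, and 1 without 3BRO 3 or 3B7N 3 and after normexp correction, with 2 to 4 in the other settings. The ascorbate peroxidases had 1 lower without 3BRO 1, 3BRO 2, 3BRO 3 or 3B7N 1, after normexp correction and with scan day as a block, and beta-oxidation had 0 calls by limma without the filter on dim probes and without 3BRO 2, 3BRO 3, 3B7N 1, DMSO 1 or DMSO 2.

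The comparison of 3B7N with DMSO shares its 3B7N arrays with both pairs. In it 5 ascorbate peroxidases, 4 peroxiredoxins, 6 genes of the thioredoxin system and 5 of photorespiration were called lower and 0 of each higher. The medians of these whole lists were -0.55, -0.31, -0.39 and -0.71. APX2 lay higher, at 1.78, but was not called. In beta-oxidation 4 genes were higher and 0 lower, at a median of 0.49. Recycling had 2 higher and 3 lower, with DHAR1 at 0.84 and DHAR3 at -0.94. The superoxide dismutases had 1 higher, CSD1 at 0.79, and 2 lower, with FSD1 at -4.23. In the reactive oxygen list 1 was higher, GSTU24 at 0.66, and 0 lower, and partners and import had 0 calls by limma. Of all genes 10.2% were lower and 5.49% higher in that comparison, with a median of -0.02. With 3BRO against DMSO 0 of the 83 genes of these lists were called by limma. Of the 83, 5 were at an unadjusted p under 0.05, as were 886 of all 23552 genes. With 7NIT against DMSO FSD1 alone was called, at -2.26 (SE 0.20, limma adjusted p = 0.0050). FSD1 was also the 1 gene of the lists called in the interaction, at -1.74 (SE 0.28, adjusted p = 0.025).

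Values within the slides that hold both groups had the same sign for the lists with most calls. They come from the same arrays and are the medians of the fit with slide as a block, so they are no further check. The third slide holds 1 3B7N array, 3B7N 3. Within that slide the medians of 3B7N against 7NIT were -0.76 for ascorbate peroxidases, -0.29 for peroxiredoxins and -0.70 for the thioredoxin system. They were -0.86 for photorespiration and 0.55 for beta-oxidation. Within the second slide those of 3B7N against 3BRO were -0.35, -0.52, -0.37, -0.40 and 0.37 for these lists in the same order. Summed root marker signal was also lower with 3B7N, 74.8 to 86.2 times the 75th percentile, against 87.2 to 97.3 with 7NIT, 98.8 to 115 with 3BRO and 107 to 132 with DMSO, over 4 of 4 markers measured. The 3 seed reserve markers, all measured, summed to 0.562 to 1.56 with 3B7N, 0.0816 to 1.51 with 7NIT, 0.154 to 0.853 with 3BRO and 0.629 to 3.56 with DMSO. Their part, and that of the green-tissue markers, in the values of the catalases, the glutathione peroxidases and the lists was not tested.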

How the data were processed

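RNA of whole seedlings, labelled with Cy3, was hybridised to single-colour Agilent arrays. The deposited files hold the intensity of every spot as written by Agilent Feature Extraction, version 10.7.3.1, per the file headers. The processed signal in them is already background-subtracted and detrended, per the file headers. The authors' deposited table of their comparisons gives absolute fold ratios and corrected p-values, with the kind of correction not given in the sources used here. The file of 3BRO 2 holds signals rounded to 3 significant digits.

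From log2 of this signal the 75th percentile of the same array was subtracted. Control spots and spots marked as non-uniform or population outliers were left out. A probe passed if well above background on 3 of 3 arrays of at least 1 group, with a value in every group: 35736 of 43603 did, 32108 of them with a locus. The brightest passing probe stood for each of 23552 genes. Symbols came from RefSeq (TAIR10.1), which held 23300 of these loci. The headers name an older build, so RefSeq served for names and neighbours only.

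One limma 3.58.1 fit (lmFit and eBayes; R 4.3.3, data.table version 1.17.8) covered all 12 arrays, with p-values adjusted by Benjamini-Hochberg over all genes within each of 7 comparisons at 0.05. The procedure was tested on simulated data. The genes and lists were chosen with earlier results of these data known. Beside the 10 loci, up to 3 called genes of largest difference per list and comparison were named, and the 3 of highest r for GPX7, CAT2 and CAT3. Some further list genes were named after seeing the data. The number of arrays limits the precision. The labels do not say whether arrays came from separate cultures, so the spread behind a p-value is only that between these samples and may be technical. Alternatives were quantile normalisation, normexp background correction (offset 50, on the median signal because the files hold no mean signal), no filter, the mean of a gene's probes, only the groups compared, blocks for slide, scan day and replicate number, each array left out and, added after seeing the data, a test of each probe. Deviations of arrays with the same replicate number correlated at -0.16 to 0.44 over 18 pairings, 11 of them over 0.1, against 6 of the 36 other pairings. All 3 were over 0.1 for 3BRO with DMSO and for 3BRO with 7NIT, so in those comparisons the numbers may pair the arrays, as read from the data and not from the labels. In each comparison of 3B7N at least 1 was under 0.1, and there the numbers were not taken as pairs.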

Additional observations from a re-analysis of the deposited data

Results flagged for a closer look

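GPX7 differed between treatments in its response to the nitro group. With the nitro group added to 3BRO, which gives 3B7N, its level fell by 2.95 log2 units, whereas 7NIT differed from DMSO by -0.20. The test of the difference between these effects gave -2.75 (SE 0.39, limma adjusted p = 0.017), but it contains a difference known when the genes were chosen, and the settings that ended this call stand beside the result in the report. Groups of 3 arrays are too small for the test of an outlying array.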

How the results depend on the processing

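GPX7 was lower with 3B7N than with 7NIT, at limma adjusted p of at most 0.0027, and than with 3BRO, at most 0.018, in all 22 settings run. GPX7 was chosen with its result for 3B7N against DMSO known, so these tests are not independent of that choice. No called value of the 10 genes, each read at its brightest probe or at the mean of its probes, changed sign in any setting, while the second probe of CAT1 was called in the opposite direction to its first. After normexp correction the number of genes called was 1 of 10 against 3BRO, 3 against 7NIT and 0 in the interaction, and GPX7 stood at -2.99 against DMSO, -3.01 against 7NIT and -2.23 against 3BRO. That setting also moved the median of all genes by over 0.1, to -0.24 against 7NIT, -0.15 against DMSO and -0.20 in the interaction. Fitting only the groups compared left 1 call against 3BRO. With slide as a block there was 1 call against DMSO, 1 against 3BRO, 3 against 7NIT and 0 in the interaction, and with scan day as a block 2 against DMSO and 0 in the interaction. Leaving out each array in turn gave 4 to 5 calls against DMSO, 1 to 3 against 3BRO, 3 to 5 against 7NIT and 0 to 1 in the interaction, and 0 to 0 for 3BRO against DMSO, 7NIT against DMSO and 7NIT against 3BRO. The cause of these losses was not tested, beyond the fewer arrays in the fits that left some out. Of all genes, 1728 were called for 3B7N against DMSO after normexp correction, 771 with slide as a block, 611 with scan day as a block, 1902 with only the groups compared and 2134 without DMSO 1, against 3697. The split of that count, 1293 higher and 2404 lower, was 1809 and 1909 after quantile normalisation. Against 7NIT the count was 2375 after normexp correction, 1954 with slide as a block, 2096 without 7NIT 1 and 2228 without 7NIT 3, against 4375, and against 3BRO it was 650 after normexp correction, 231 with only the groups compared, 1175 with slide as a block, 853 without 3BRO 2 and 1033 without 3BRO 3, against 1770. The interaction count was 0 after normexp correction, 92 without the filter, 96 with slide as a block, and 31 to 400 with an array left out, against 155. Over all settings the count of all genes was 0 to 96 for 7NIT against DMSO, 0 to 43 for 3BRO against DMSO and 0 to 16 for 7NIT against 3BRO, against 6, 1 and 5. With the replicate number as a block 4 genes of the set were called against DMSO, 5 against 7NIT, 3 against 3BRO and 1 in the interaction, the same numbers as without it. The block changed no count of calls among the 10 genes in the other 3 comparisons either (0 each). GPX7 had the widest intervals of the 10 genes, 1.22 log2 units or more.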
